A study of Rattus norvegicus with 18 samples.

Results

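The genes of TGF-beta, BMP and SMAD signalling were followed in RNA-seq of Rat1 fibroblasts, a rat cell line, in which both copies of myc are deleted (line HO15.19). Members were taken by symbol: names beginning with Tgfb or Bmp followed by a number or by r, with Smad, Gdf or Ltbp followed by a number, or with Inhb or Acvr, together with Id1 to Id4. No measured value entered this rule, but it was chosen with earlier results of these data known. The rule found 45 genes among the 13188 of the table. They comprise 3 TGF-beta ligands, 4 latent TGF-beta binding proteins, 3 TGF-beta receptors, 4 activin and inhibin subunits, 8 BMP and GDF ligands, 8 activin and BMP receptors, 6 signalling SMADs, 2 inhibitory SMADs, 4 Id factors and 3 further proteins whose names carry the pathway.

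All 6 groups of 3 libraries were myc-/- cells. They were myc-/- cells without transfection, myc-/- cells given control siRNA (siCtrl), myc-/- cells stably expressing human MYC (myc-/- + MYC) without transfection, and myc-/- + MYC cells given siCtrl or one of 2 siRNAs against the aryl hydrocarbon receptor AHR (siAHR-2 and siAHR-5). Stable lines had been made by viral infection, with MYC driven from the pBabe retroviral vector and an empty vector in the control cells according to the paper. The siRNAs were used at 40 nM for 48 h, and the labels give 10% serum for every library. The study asked which transcriptional programmes depend on MYC, and the siRNA groups ask which of them pass through AHR. All groups come from 1 cell line, and the labels do not say that the 3 libraries of a group were separate cultures, so p-values measure the spread between these libraries, which may be technical.

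Ligands of this family are secreted as dimers. TGF-beta itself leaves the cell in a latent complex tied to the matrix by latent TGF-beta binding proteins and must be released before it can bind. Active ligands bring together type I and type II receptor kinases, which phosphorylate SMAD2 and SMAD3 (TGF-beta and activin) or SMAD1, SMAD5 and SMAD9 (BMP). These join SMAD4 and enter the nucleus, while SMAD6 and SMAD7 damp the signal. In fibroblasts TGF-beta is known for driving matrix production and contractile genes, and the Id genes are direct outputs of BMP signalling.

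The deposited values followed 2 scales. The myc-/- siCtrl and myc-/- + MYC libraries shared one (the 6-library set, drawn as set of 6), the remaining 4 groups the other (the 12-library set, drawn as set of 12), and libraries were compared only within a set. Values are log2 normalized expression as the authors deposited it, so that a difference of 1 is a doubling on that scale. Levels are not comparable between genes, because they are not given per length, and the read depth of the libraries is unknown. The transfected cells of the first set were those without MYC and the transfected cells of the second MYC comparison those with it, so inside a single set the 2 cannot be told apart. Groups are named as the labels name them. The table heads the myc-/- siCtrl columns only as controls, and no value here checks that these cells were transfected. Ahr, the target of the siRNAs, read 13.22 to 13.34 in myc-/- + MYC siCtrl libraries, 11.97 to 12.03 under siAHR-2 and 11.76 to 11.95 under siAHR-5. Rat Myc transcript was still counted in every library, at 8.01 to 8.08 with MYC against 9.16 to 9.47 without in the 6-library set and at 8.16 to 8.27 against 10.82 to 10.94 in the 12-library set, so this check cannot tell the deletion. The library myc-/- replicate 2 stood apart: 6.59% of all genes lay more than 0.3 from the mean of the other 2 libraries of its group, against 0.114% to 1.67% in the other 17 libraries. Of 14 fibroblast markers 13 were listed. Col1a2, a defining one, had a mean under 5 in every group and Fap in all groups but myc-/-, while the epithelial markers Epcam and Cdh1 and the leukocyte markers Ptprc and Itgam were under 5 throughout. Of 5 listed epithelial markers Krt8 rose in both sets (1.70 and 1.17) and Cldn4 fell in the 6-library set (-0.84), and of 4 leukocyte markers Cd3e fell in both (-2.09 and -1.13). Of 5 endothelial markers Vwf fell in both (-1.89 and -3.06) and Tek rose in the 6-library set (1.61), and of 5 osteoblast and chondrocyte markers 0 passed. The 3 listed muscle markers (Des, Myh11 and Ckm) fell with MYC in both sets, their summed level going from 11.45 to 11.51 down to 9.87 to 10.02 in the 6-library set and from 11.86 to 11.91 down to 10.46 to 10.56 in the 12-library set. Their part in the results was not tested, and fewer cells of a type cannot be told apart from less RNA per cell in bulk samples.

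More members were called lower than higher in the cells that expressed MYC. A gene was called higher or lower when it changed by a fold of at least 1.5 with an adjusted p of at most 0.01 by limma, a linear model with moderated variances. In the 6-library set, 20 members were lower and 3 higher with MYC, against 14.3% of all genes called lower and 12.5% called higher (26.8% called in all). In the 12-library set, 26 members were lower and 6 higher, against 14.7% and 10.8% of all genes (25.5% called in all). The median log2FC of the 45 members was -0.53 and -0.70, and that of all genes tested -0.00 in both. The 3 libraries of each group did not overlap for 37 members in the 6-library set and for 40 in the 12-library set, where 78.8% and 70.5% of all genes did not. The plot of log2 fold changes by role shows both comparisons side by side.

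**Figure D1:**
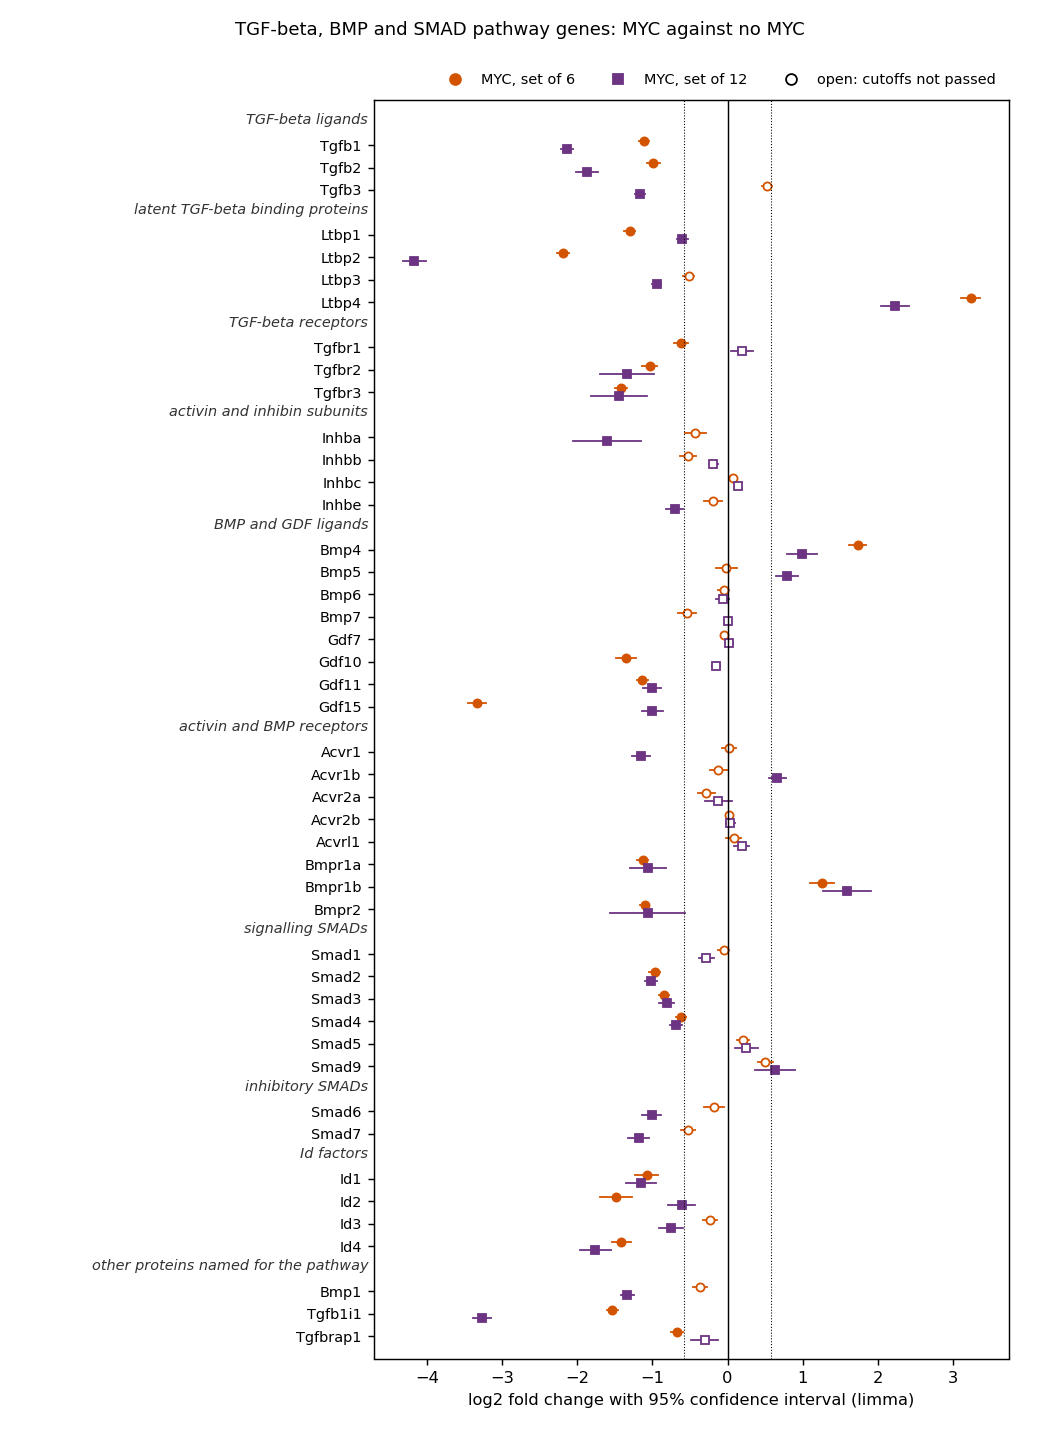
Log2 fold change (x axis) of each of the 45 pathway genes, grouped by role, for cells with MYC against cells without in the set of 6 (orange circles) and in the set of 12 (purple squares). Lines are 95% confidence intervals, dotted lines mark the fold cutoff and open symbols did not pass both cutoffs; 20 members were lower and 3 higher in the set of 6, and 26 lower and 6 higher in the set of 12.

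The 2 MYC comparisons share no library, and the transfected group is the one without MYC in the first and the one with MYC in the second. They called no member in opposite directions (under quantile normalization 1, Tgfb3), and only 45 of all 13188 genes, so such calls were rare throughout. Both comparisons called the same 20 members, 17 lower and 3 higher, against 15.8% of all genes called in the same direction in both (8.91% lower and 6.87% higher). Those that fell in both were Tgfb1, Tgfb2, Ltbp1, Ltbp2, Tgfbr2, Tgfbr3, Gdf11, Gdf15, Bmpr1a, Bmpr2, Smad2, Smad3, Smad4, Id1, Id2, Id4 and Tgfb1i1. Of these, Ltbp1 and Id2 lost the 12-library call under median centring and under quantile normalization. Smad4 lost its call in both sets under quantile normalization. Those that rose in both were Ltbp4, Bmp4 and Bmpr1b. Another 3 passed only in the 6-library set and 12 only in the 12-library set, and 10 passed in neither, where 10.7%, 9.36% and 63.8% of all genes did so. Of the members, 5 had a mean under 5 in the 6-library set and 8 in the 12-library set, and none of these was called. Over all genes, 5 of 2382 and 2 of 2457 such genes were called.

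MYC and its partner MAX bind the E-box CACGTG, and the start regions of the members were searched for it because many members moved together. RefSeq start regions on GRCr8, 250 bases before to 50 bases after a transcript start, matched 39 of the 45 members. The build of the deposited values is rn6, so these coordinates belong to GRCr8 alone. CACGTG, which reads the same on both strands, stood in 4 of the 42 start regions of these members (9.52%) and in 6.42% of all 33469 start regions. The 30 bases around it, 5′ to 3′ on the strand of the gene, are given with the E-box in capitals, for the rising ligand Bmp4, the falling ligand Tgfb2, and 2 genes called in a single set.
Bmp4, chr15:22101988-22102017, minus strand: ggcctctgggtcCACGTGactcctaggggc
Tgfb2, chr13:100792897-100792926, minus strand: cactcatccacaCACGTGtggaaggcaggg
Acvr1b, chr7:134164871-134164900, plus strand: ctcccgggagctCACGTGccggcgcggagc
Tgfbrap1, chr9:52857257-52857286, minus strand: cgggcggcggccCACGTGacgggaagcggc

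The E-box begins at -72 in Bmp4, -229 in Tgfb2, -118 in Acvr1b and -33 in Tgfbrap1, counted from the transcript start used. The windows of Bmp4, Tgfb2 and Tgfbrap1 lie inside the span of their gene, downstream of its outermost start, and that of Acvr1b lies before its gene. GGCGCC, a GC-rich element known from BMP-responsive genes and also its own reverse complement, stood in 14 of the 42 (33.3%) against 11% of all start regions. The 13 members were Acvr1b, Acvr2a, Gdf10, Id4, Inhbb, Ltbp1, Smad2, Smad3, Smad7, Smad9, Tgfbr1, Tgfbr3 and Tgfbrap1. The region before the start of Tgfbr3, which fell in both sets, is printed as an example with the element in capitals, beginning at -66.
Tgfbr3, chr14:2634194-2634293, plus strand: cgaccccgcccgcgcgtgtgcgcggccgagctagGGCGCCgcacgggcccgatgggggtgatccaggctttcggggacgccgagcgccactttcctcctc

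The CAGA box AGCCAGACA and the palindromic SMAD element GTCTAGAC, searched on both strands, stood in 0 members and in 0.368% and 0.197% of all start regions. The shares of all start regions were not restricted to genes of the table or matched for base composition. A match is a description of these letters only.

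Among the TGF-beta ligands, Tgfb1 and Tgfb2 fell in both sets and Tgfb3 in 1. Tgfb1, the founding isoform, read 14.95, 14.94 and 14.97 in the myc-/- siCtrl libraries and 13.89, 13.83 and 13.80 in the myc-/- + MYC libraries (log2FC -1.11, SE 0.0309, limma adjusted p = 5.93e-11). The 12-library set read 15.38, 15.45 and 15.39 in myc-/- and 13.27, 13.31 and 13.24 in myc-/- + MYC siCtrl cells (log2FC -2.13, SE 0.0323, limma adjusted p = 1.99e-07). All 6 libraries with MYC lay below those without in their set, and the fold was 0.463 in the 6-library set and 0.228 in the 12-library set. Tgfb2, whose product needs the co-receptor betaglycan to bind well, went from 12.88, 12.80 and 12.75 to 11.82, 11.83 and 11.82 in the 6-library set (log2FC -0.99, SE 0.0385, limma adjusted p = 8.96e-10). The 12-library set had 15.53, 15.32 and 15.49 without and 13.62, 13.60 and 13.52 with MYC (log2FC -1.87, SE 0.0611, limma adjusted p = 2.67e-06). For Tgfb3, the third isoform, the sets differed in direction: its log2FC was 0.52 in the 6-library set, below the fold cutoff (limma adjusted p = 2.52e-08), and it fell in the 12-library set (log2FC -1.16, SE 0.0275, limma adjusted p = 8.45e-07). It stood at 12.68, 12.67 and 12.64 without and 13.18, 13.22 and 13.18 with MYC in the 6-library set, and at 14.78, 14.75 and 14.77 and 13.64, 13.59 and 13.58 in the 12-library set, with no overlap in either. Under quantile normalization its 6-library log2FC was 0.62 and passed as higher.

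**Figure D2:**
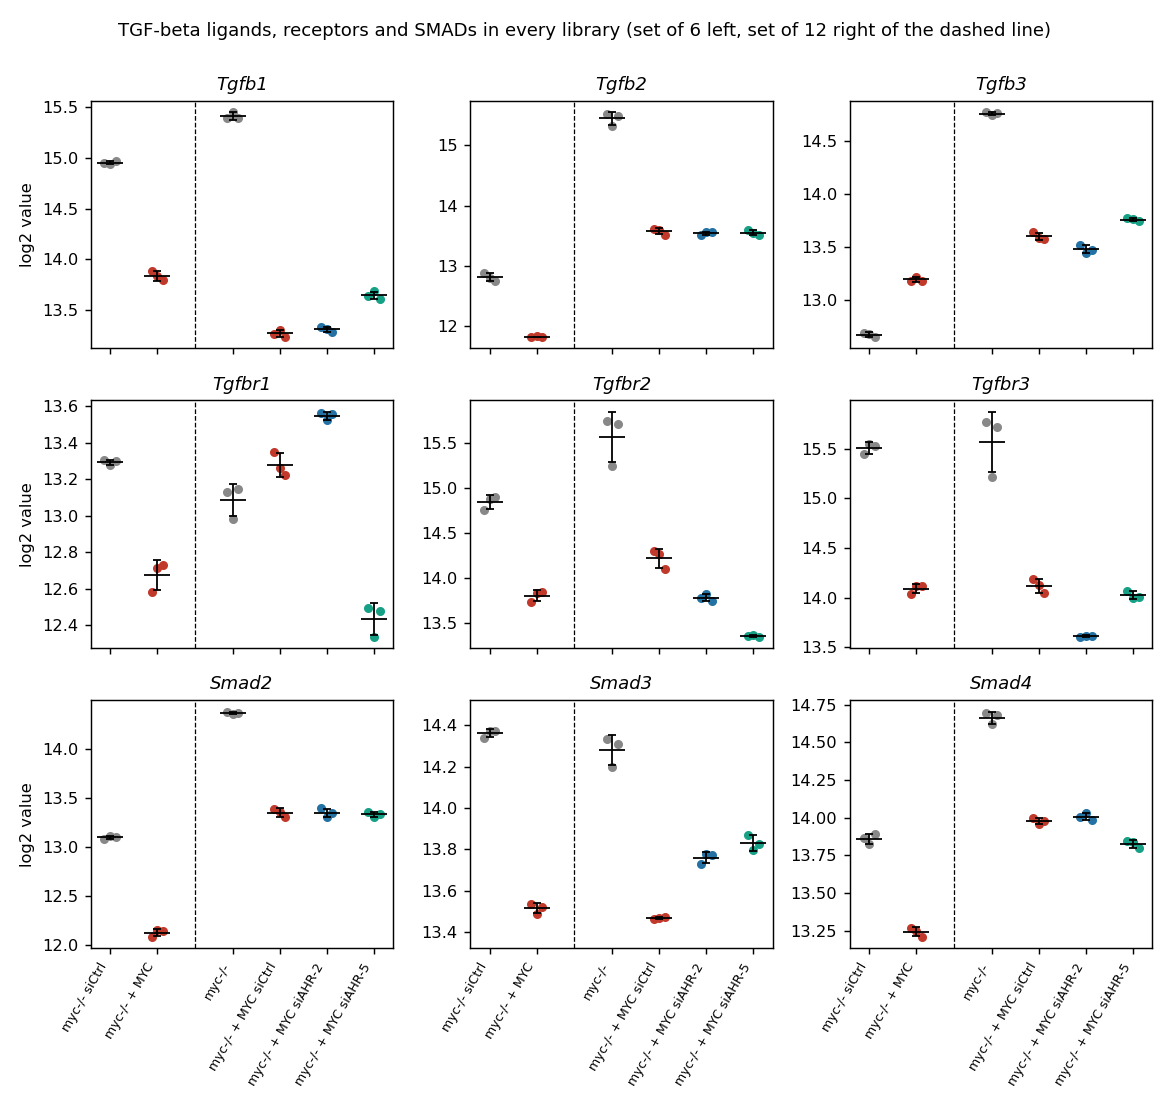
Deposited log2 value (y axis, its own range in each panel) of 9 ligands, receptors and SMADs of the TGF-beta branch in each of the 18 libraries, by group (x axis). Points are libraries, bars the mean and SD of 3, and the dashed line parts the set of 6 from the set of 12; libraries with MYC sit below those without in both sets for Tgfb1, Tgfb2, Tgfbr2, Tgfbr3, Smad2, Smad3 and Smad4.

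The latent TGF-beta binding proteins moved in opposite directions. Ltbp2, a matrix member of the family, had the lowest log2FC of all members in the 12-library set. Its values were 15.94, 16.02 and 16.04 in myc-/- siCtrl and 13.87, 13.78 and 13.78 in myc-/- + MYC libraries (log2FC -2.19, SE 0.0369, limma adjusted p = 1.43e-12). In the 12-library set they were 16.61, 16.49 and 16.64 in myc-/- and 12.31, 12.48 and 12.44 in myc-/- + MYC siCtrl libraries (log2FC -4.17, SE 0.0603, limma adjusted p = 1.78e-07). The fold was 0.220 and 0.0556, with no overlap of the groups. Ltbp1, the binding protein that carries latent TGF-beta to the matrix, fell from 14.14, 14.10 and 14.05 to 12.76, 12.79 and 12.84 (log2FC -1.30, SE 0.0341, limma adjusted p = 3.71e-11). Its 12-library value was near the cutoff, with 13.72, 13.65 and 13.66 without and 13.07, 13.07 and 13.10 with MYC (log2FC -0.60, SE 0.0289, limma adjusted p = 1.18e-05). Without myc-/- replicate 1 its log2FC was -0.58 and the call was lost. Median centring (-0.56) and quantile normalization (-0.54) also ended this call. Ltbp3 had log2FCs of -0.52 and -0.94 and was called lower in the 12-library set alone.

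Ltbp4, a binding protein known for elastic fibre assembly, was the member with the highest log2FC in both sets. It read 8.91, 8.89 and 9.02 without MYC and 12.27, 12.14 and 12.12 with MYC in the 6-library set (log2FC 3.24, SE 0.0567, limma adjusted p = 1.86e-12). Values in the other set were 8.37, 8.47 and 8.28 and 10.53, 10.58 and 10.70 (log2FC 2.23, SE 0.0747, limma adjusted p = 2.94e-06). Every library with MYC was above every library without, by a fold of 9.42 in the 6-library set and 4.70 in the 12-library set. The plot of the 4 latent binding proteins by library shows the 2 directions.

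**Figure D3:**
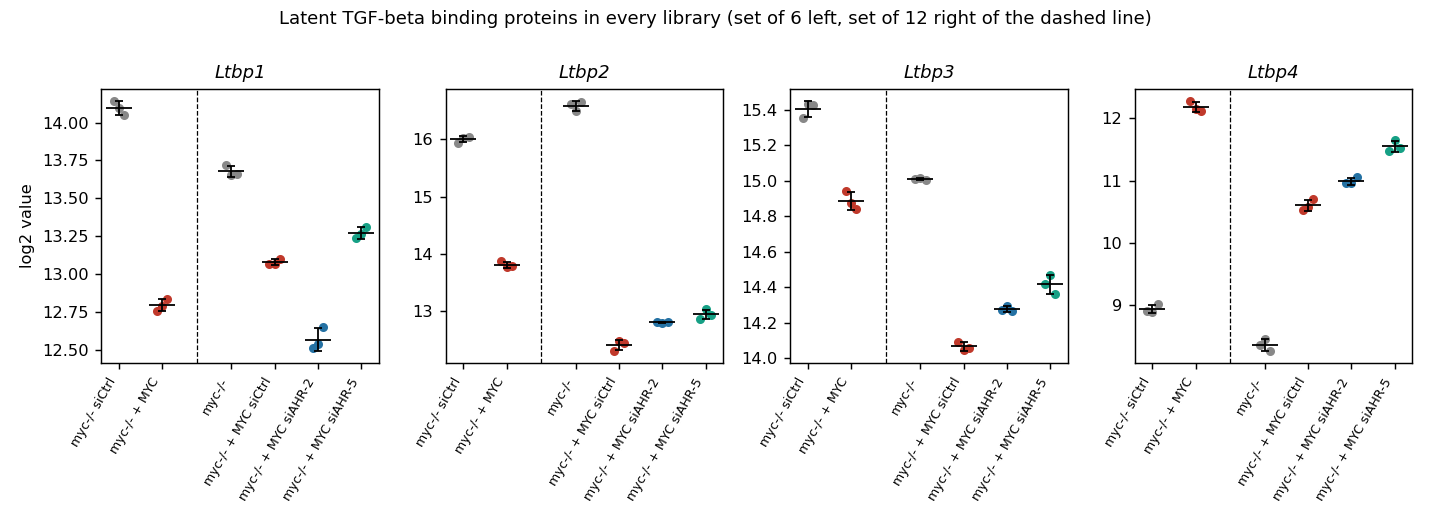
Deposited log2 value (y axis, its own range in each panel) of Ltbp1, Ltbp2, Ltbp3 and Ltbp4 in each of the 18 libraries, by group (x axis). Points are libraries, bars the mean and SD of 3, and the dashed line parts the 2 sets; Ltbp2 falls by 2.19 and 4.17 with MYC and Ltbp4 rises by 3.24 and 2.23 on the log2 scale, and Ltbp4 is highest among the libraries of the set of 12 with siAHR-5.

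Of the TGF-beta receptors, the type II receptor and betaglycan fell in both sets and the type I receptor in the 6-library set alone. Tgfbr2, the type II kinase that binds the ligand first, read 14.75, 14.88 and 14.90 in myc-/- siCtrl and 13.74, 13.83 and 13.84 in myc-/- + MYC libraries (log2FC -1.04, SE 0.0433, limma adjusted p = 1.6e-09). The 12-library set read 15.74, 15.24 and 15.70 without and 14.29, 14.26 and 14.10 with MYC (log2FC -1.34, SE 0.145, limma adjusted p = 0.000354). The low value without MYC was myc-/- replicate 2, and without that library the log2FC was -1.51. Tgfbr3, which encodes the co-receptor betaglycan, read 15.44, 15.55 and 15.53 and 14.03, 14.11 and 14.12 in the 6-library set (log2FC -1.42, SE 0.0361, limma adjusted p = 3.04e-11). Its values in the 12-library set were 15.77, 15.22 and 15.72 and 14.18, 14.12 and 14.05 (log2FC -1.45, SE 0.151, limma adjusted p = 0.000299), again with replicate 2 the lowest of the myc-/- libraries and a log2FC of -1.63 without it. Groups did not overlap for either gene. Tgfbr1, the type I kinase, stood at 13.30, 13.28 and 13.30 without and 12.58, 12.71 and 12.73 with MYC in the 6-library set (log2FC -0.62, SE 0.0408, limma adjusted p = 7.69e-08). Leaving out myc-/- + MYC replicate 1, the lowest, gave -0.57 and ended the call. The 12-library values were 13.13, 12.98 and 13.14 and 13.35, 13.26 and 13.22, a log2FC of 0.19 (95% interval 0.05 to 0.34).

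The receptor-activated SMADs of the TGF-beta branch and the shared SMAD4 fell in both sets. Of the BMP branch, Smad1 and Smad5 did not pass in either, and the branches were not tested against each other. Smad2 read 13.08, 13.11 and 13.10 without and 12.08, 12.16 and 12.14 with MYC in the 6-library set (log2FC -0.97, SE 0.0328, limma adjusted p = 2.82e-10), and 14.38, 14.36 and 14.37 and 13.39, 13.36 and 13.31 in the 12-library set (log2FC -1.02, SE 0.0299, limma adjusted p = 1.84e-06). Smad3 read 14.34, 14.37 and 14.37 and 13.53, 13.49 and 13.52 in the 6-library set (log2FC -0.85, SE 0.0281, limma adjusted p = 2.49e-10), and 14.34, 14.20 and 14.31 and 13.46, 13.47 and 13.47 in the 12-library set (log2FC -0.81, SE 0.0412, limma adjusted p = 1.43e-05). The groups were apart in each case, and the log2FC of the 12-library set less that of the 6-library set was -0.05 (95% interval -0.16 to 0.06) for Smad2 and 0.03 (-0.08 to 0.15) for Smad3. Smad4, the common partner, went from 13.86, 13.83 and 13.89 to 13.27, 13.25 and 13.21 (log2FC -0.62, SE 0.0310, limma adjusted p = 7.74e-09) and from 14.70, 14.62 and 14.68 to 13.999, 13.96 and 13.98 (log2FC -0.69, SE 0.0301, limma adjusted p = 8.14e-06). Under quantile normalization its log2FC was -0.46 and -0.58, below the fold cutoff in both sets. In the BMP branch, Smad1 had log2FCs of -0.05 (95% interval -0.12 to 0.02) and -0.28 (-0.39 to -0.17), and Smad5 of 0.20 (0.12 to 0.29) and 0.25 (0.09 to 0.40). Smad9 had 0.50 in the 6-library set and rose in the 12-library set (log2FC 0.63, SE 0.109, limma adjusted p = 0.00282), where the call was lost when myc-/- replicate 1 or 3 or myc-/- + MYC siCtrl replicate 1 or 2 was left out (log2FC 0.56 to 0.63).

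Both inhibitory SMADs, which block receptor signalling and are themselves induced by it, were called in the 12-library set alone. Smad6 had log2FCs of -0.19 in the 6-library set and -1.01 in the 12-library set (limma adjusted p = 1.64e-05). Smad7 had -0.53, under the fold cutoff, and -1.18 (limma adjusted p = 1.07e-05).

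Ligands and receptors of the BMP branch did not move together. Bmp4, a BMP ligand that acts in mesenchymal tissues, rose in both sets. It read 5.302, 5.29 and 5.29 in myc-/- siCtrl and 7.08, 7.01 and 6.99 in myc-/- + MYC libraries (log2FC 1.73, SE 0.0494, limma adjusted p = 7.17e-11), and 6.71, 6.73 and 6.79 in myc-/- and 7.74, 7.88 and 7.59 in myc-/- + MYC siCtrl libraries (log2FC 0.99, SE 0.0815, limma adjusted p = 0.000106). The groups were apart, with a fold of 3.32 and 1.99. Bmp5 passed in the 12-library set alone, with log2FCs of -0.02 and 0.79. Bmp6, Bmp7 and Gdf7 passed in neither, at log2FCs of -0.05, -0.54 and -0.05 in the 6-library set and -0.07, -0.00 and 0.02 in the 12-library set. Bmp7 passed as lower in the 6-library set under median centring (-0.59), under quantile normalization (-0.60) and without myc-/- siCtrl replicate 2. In the 12-library set Bmp7 lay at 3.44 to 3.51 and Gdf7 at 1.11 to 1.18 in all libraries, so no difference was detectable there.

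Gdf15, a divergent family member known as a stress-induced secreted factor, had the lowest log2FC of all members in the 6-library set. It read 11.76, 11.68 and 11.61 without and 8.39, 8.32 and 8.35 with MYC (log2FC -3.33, SE 0.0538, limma adjusted p = 1.06e-12), a fold of 0.0992. The 12-library set gave 9.08, 9.16 and 9.17 and 8.16, 8.18 and 8.07 (log2FC -1.0, SE 0.0560, limma adjusted p = 2.14e-05), a fold of 0.500. Groups did not overlap in either set. Gdf11, a ligand that signals through activin receptors and SMAD2 and SMAD3, read 13.65, 13.58 and 13.62 and 12.52, 12.48 and 12.45 in the 6-library set (log2FC -1.13, SE 0.0325, limma adjusted p = 7.49e-11) and 12.47, 12.34 and 12.40 and 11.44, 11.40 and 11.35 in the 12-library set (log2FC -1.01, SE 0.0483, limma adjusted p = 1.15e-05). The difference between its 2 log2FCs was 0.12 (95% interval -0.01 to 0.26). Gdf10 had log2FCs of -1.35, called lower, and -0.15, not called, and its mean in the 12-library set was under 5. Its myc-/- + MYC values in the 6-library set were almost equal, at 5.7975, 5.7992 and 5.8009. Whether these lay at a floor was not tested.

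The BMP type I receptors went in opposite directions. Bmpr1a fell from 14.57, 14.61 and 14.60 to 13.41, 13.51 and 13.48 in the 6-library set (log2FC -1.13, SE 0.0326, limma adjusted p = 8.09e-11) and from 15.06, 14.74 and 15.06 to 13.97, 13.90 and 13.83 in the 12-library set (log2FC -1.06, SE 0.0976, limma adjusted p = 0.00018). Bmpr1b rose from 10.03, 9.84 and 9.84 to 11.03, 11.21 and 11.25 in the 6-library set (log2FC 1.26, SE 0.0702, limma adjusted p = 1.84e-08) and from 10.63, 10.29 and 10.77 to 12.22, 12.16 and 12.07 in the 12-library set (log2FC 1.59, SE 0.129, limma adjusted p = 0.000103). No group overlapped for either gene. Bmpr2, the type II receptor for BMPs, fell from 13.42, 13.42 and 13.42 to 12.31, 12.32 and 12.32 (log2FC -1.10, SE 0.0286, limma adjusted p = 3.53e-11) and from 15.28, 14.56 and 15.26 to 14.06, 13.97 and 13.88 (log2FC -1.06, SE 0.203, limma adjusted p = 0.00444). The myc-/- replicate 2 was the lowest of its group for all 3 receptors. Without it the log2FC was -1.16 for Bmpr1a, 1.45 for Bmpr1b and -1.30 for Bmpr2. The call of Bmpr2 in the 12-library set was lost without any one of the other 5 libraries, at limma adjusted p of 0.0167 to 0.0229.

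**Figure D4:**
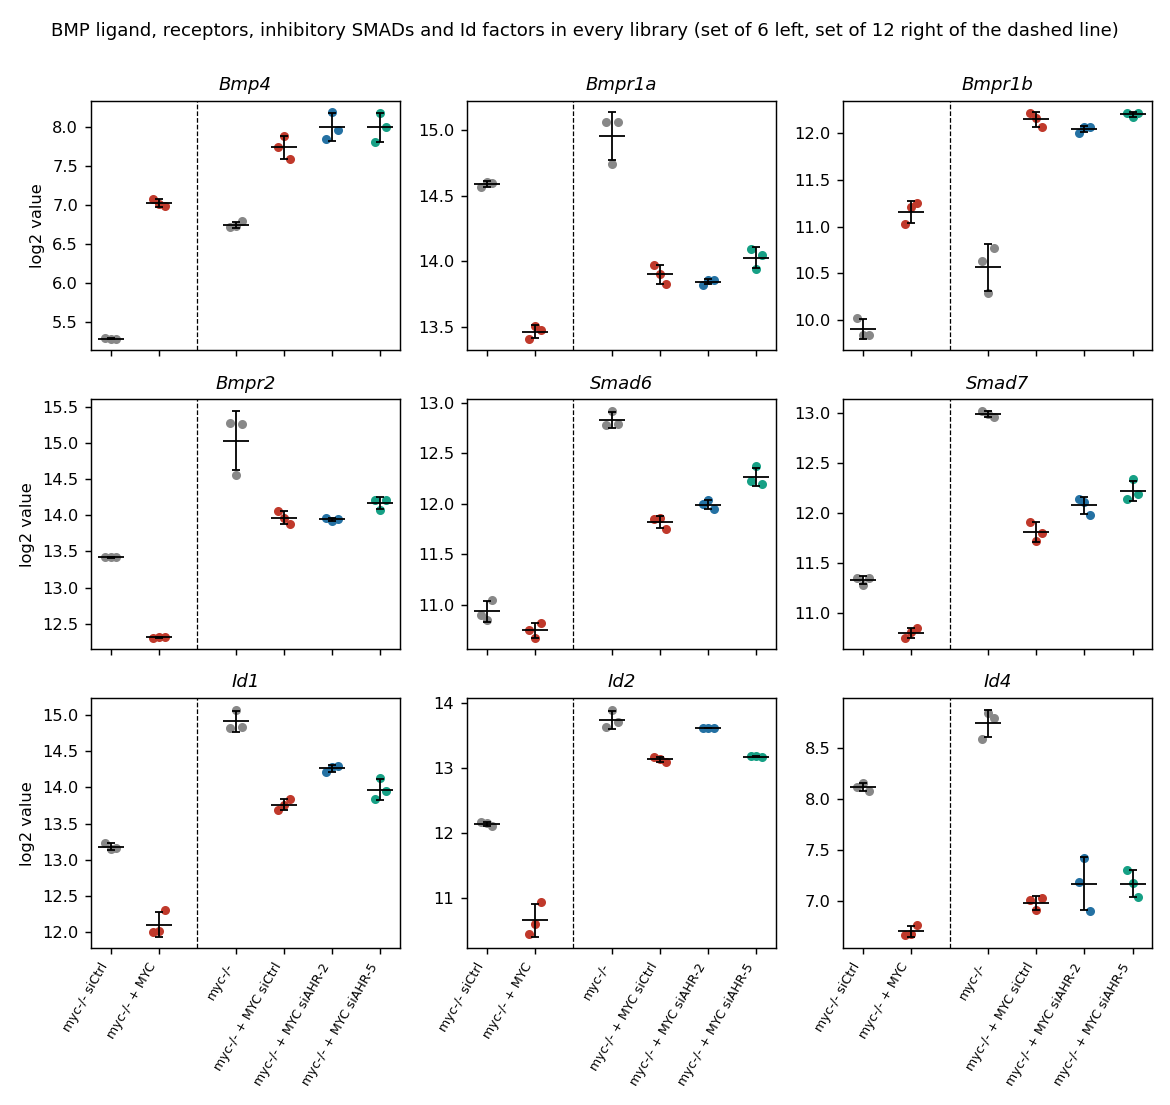
Deposited log2 value (y axis, its own range in each panel) of 9 ligands, receptors, inhibitory SMADs and Id factors of the BMP branch in each of the 18 libraries, by group (x axis). Points are libraries, bars the mean and SD of 3, and the dashed line parts the 2 sets; Bmp4 and Bmpr1b lie higher with MYC in both sets, Bmpr1a, Bmpr2, Id1, Id2 and Id4 lower, and the myc-/- replicate 2 lies below its group for the 3 receptors.

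Among receptors of the activin group, Acvr1 and Acvr1b were called in the 12-library set alone. Acvr1, a type I receptor for BMPs and activins, had log2FCs of 0.02 (95% interval -0.07 to 0.11) and -1.15, and was called lower in the 12-library set. Acvr1b, the activin type I receptor, had -0.13 and 0.66, and was called higher in the 12-library set. The type II receptors Acvr2a and Acvr2b and the endothelial type I receptor Acvrl1 passed in neither, with log2FCs from -0.28 to 0.19, and Acvr2b and Acvrl1 had means under 5.

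Inhba, which encodes the subunit of activin A, was the activin gene with the largest change in the 12-library set. Its values were 9.61, 9.51 and 9.49 without and 9.09, 9.05 and 9.18 with MYC in the 6-library set (log2FC -0.43, SE 0.0611, limma adjusted p = 5.93e-05), below the fold cutoff. Values of the 12-library set were 11.33, 10.66 and 11.27 and 9.53, 9.43 and 9.48 (log2FC -1.61, SE 0.182, limma adjusted p = 0.000436), where it fell. Without myc-/- replicate 2, the lowest of its group, the log2FC was -1.82. Inhbe passed in the 12-library set and not in the other (-0.19 and -0.70), and Inhbb and Inhbc passed in neither, at -0.53 and 0.07 in the 6-library set and -0.19 and 0.14 in the 12-library set. Under quantile normalization the 12-library log2FC of Inhbe was -0.50, below the fold cutoff.

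The Id genes, which encode inhibitors of helix-loop-helix transcription factors, were all lower in the point estimate in both sets. Id1 read 13.23, 13.15 and 13.16 without and 12.003, 12.02 and 12.30 with MYC in the 6-library set (log2FC -1.08, SE 0.0685, limma adjusted p = 5.82e-08), and 14.82, 15.07 and 14.84 and 13.68, 13.76 and 13.84 in the 12-library set (log2FC -1.15, SE 0.0807, limma adjusted p = 5.59e-05). Id4 read 8.12, 8.15 and 8.08 and 6.67, 6.67 and 6.76 in the 6-library set (log2FC -1.42, SE 0.0583, limma adjusted p = 1.44e-09), and 8.59, 8.84 and 8.79 and 7.01, 6.91 and 7.03 in the 12-library set (log2FC -1.76, SE 0.0825, limma adjusted p = 1.07e-05). The groups did not overlap for Id1 or Id4. Id2 read 12.17, 12.15 and 12.11 and 10.44, 10.60 and 10.93 in the 6-library set (log2FC -1.49, SE 0.0968, limma adjusted p = 7.06e-08), with the widest spread among its MYC libraries and still no overlap. The 12-library set read 13.63, 13.90 and 13.71 and 13.17, 13.14 and 13.10 (log2FC -0.61, SE 0.0723, limma adjusted p = 0.000546), and without myc-/- replicate 2, here the highest of its group, the log2FC was -0.53 and the call was lost. Id3 had log2FCs of -0.24 and -0.76 and was called lower in the 12-library set alone. Under quantile normalization the log2FC of Id3 there was -0.57 and the call was lost. The 12-library call of Id2 was also lost under median centring (-0.57) and quantile normalization (-0.55).

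Of the further proteins, Tgfb1i1 (Hic-5), a focal adhesion adaptor induced by TGF-beta, fell furthest. It read 13.82, 13.81 and 13.87 without and 12.30, 12.27 and 12.33 with MYC in the 6-library set (log2FC -1.54, SE 0.0324, limma adjusted p = 7.54e-12), and 14.71, 14.79 and 14.68 and 11.45, 11.54 and 11.40 in the 12-library set (log2FC -3.27, SE 0.0491, limma adjusted p = 1.93e-07). The fold was 0.345 and 0.104, and the groups were far apart. Bmp1, a metalloprotease that processes procollagen and is no BMP ligand, had log2FCs of -0.36 and -1.33 and was called lower in the 12-library set. Tgfbrap1, an adaptor of the TGF-beta receptor, had -0.67, called lower, and -0.30, not called.

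The difference between the 2 MYC effects, that of the 12-library set less that of the 6-library set, was fitted over all 4 groups together. It passed both cutoffs for 19 members (16.5% of all genes), 12 with a lower and 7 with a higher log2FC in the 12-library set, where 9.67% and 6.79% of all genes did so. Under median centring or quantile normalization Smad7 was lost and Bmp7 gained, giving 11 and 8. This test takes in whatever the change of scale and of the transfected group adds, which cannot be told apart. None of the 6 signalling SMADs passed it, and all 3 TGF-beta ligands did.

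Known partners and outputs of the pathway were read from 6 lists of 122 genes in all, also chosen with earlier results of these data known. In the 6-library set, 43 were lower and 8 higher with MYC, and in the 12-library set, 50 were lower and 8 higher, with 35 lower and 5 higher in both. Over all genes 14.3% were lower and 12.5% higher in the 6-library set, 14.7% and 10.8% in the 12-library set, and 8.91% and 6.87% in both. The list of TGF-beta target genes had 17 lower and 2 higher of 31 in the 6-library set (median log2FC -0.73) and 21 lower and 0 higher in the 12-library set (median -1.03). Its members by the naming rule were Tagln (a smooth muscle actin-binding protein), at log2FCs of -2.98 and -5.93, Col1a1 (the fibrillar collagen chain) at -1.73 and -5.95, Acta2 (smooth muscle actin) at -1.49 and -5.27, and Timp3 (a metalloprotease inhibitor) at -4.32 and -1.78. Some of these targets also serve as fibroblast markers, and of the 13 listed fibroblast markers 6 were called lower in both sets (8.91% of all genes were) beside the 3 muscle markers given above. Col3a1, both a listed target and a fibroblast marker, was called higher in the 6-library set (log2FC 1.30) and not called in the 12-library set (-0.08). The BMP target list, which leaves out the Id genes given above, did not lean: 3 of 15 lower and 2 higher in the 6-library set, and 3 and 3 in the 12-library set. Msx1 was at -2.05 and -2.65, Prrx2 at -0.96 and -2.08, Hey1 at 1.52 and 1.36 and Gata2 at 1.40 and 1.23. All 4 are transcription factors. The myc-/- + MYC values of Msx1 in the 6-library set were almost equal, at 6.7696, 6.7733 and 6.7769. Whether these values of Msx1 lay at a floor was not tested.

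The list of latency, activation and processing genes had 7 lower and 1 higher of 16 in the 6-library set, and 9 and 1 in the 12-library set. Mmp2 (gelatinase) was at log2FCs of -4.05 and -4.83, Thbs1 (thrombospondin, an activator of latent TGF-beta) at -1.40 and -3.30, and Htra1 (a secreted serine protease) at -1.58 and -2.58. Fbn2, the fibrillin of microfibrils, was the riser, at 4.72 and 3.52. The list of secreted antagonists and ligand-binding proteins had 8 of 21 lower and 0 higher in each set. It also holds the ligand genes Nodal, Amh and Mstn and the inhibin subunit gene Inha. Over all genes 14.3% were lower and 12.5% higher in the 6-library set, and 14.7% and 10.8% in the 12-library set. Bgn was at -3.03 and -5.29 and Fmod at -1.77 and -4.83 (matrix proteoglycans that bind TGF-beta), with the BMP antagonist Nbl1 at -2.28 and -3.26 and the activin antagonist Fst at -1.83 and -1.48.

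Co-receptors and receptor regulators had 3 lower and 1 higher of 12 in the 6-library set and 5 lower and 0 higher in the 12-library set. Gpc1, a cell-surface proteoglycan, was at -1.75 and -2.43 and Fkbp1a, an inhibitor of type I receptors, at -0.69 and -0.71 (-0.47 and -0.56, below the fold cutoff, under quantile normalization). SMAD partners and regulators had 5 lower and 2 higher of 27 in the 6-library set and 4 and 4 in the 12-library set, so that 25.9% and 29.6% of the list were called, near the 26.8% and 25.5% of all genes. The SMAD corepressors split: Tgif2 rose (2.35 and 1.94) and Tgif1 fell (-0.96 and -0.77). Nedd4l, a ubiquitin ligase for activated SMADs, was at -1.14 and -1.39, and Tab1, an activator of the kinase TAK1, at 0.79 and 0.83.

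Knockdown of AHR in MYC-expressing cells moved few members past the cutoffs. The siAHR-2 and siAHR-5 groups were each compared with the same 3 myc-/- + MYC siCtrl libraries, which also served the MYC comparison of the 12-library set, so these comparisons are not independent. With siAHR-2, 0 of 45 members were called by limma, against 0.470% of all genes (0.159% higher and 0.311% lower), and 17 (37.8%) reached an unadjusted p below 0.05, against 40.4% of all genes. The other siRNA called 3 members (2.32% of all genes), 1 higher and 2 lower, where 1.47% and 0.849% of all genes were. The groups did not overlap for 20 members with siAHR-2 and 27 with siAHR-5, where 43.3% and 50.5% of all genes did not. The median log2FC of the members was 0.01 and 0.13, beside 0.00 and 0.01 for all genes. At an FDR of 0.05 without a fold cutoff, 39 and 40 members differed with MYC in the 2 sets (76.2% and 64.7% of all genes), 16 with siAHR-2 (29.3%), 20 with siAHR-5 (39.2%), 23 between the siRNAs (39.1%) and 28 in the difference between the MYC effects (54.9%).

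**Figure D5:**
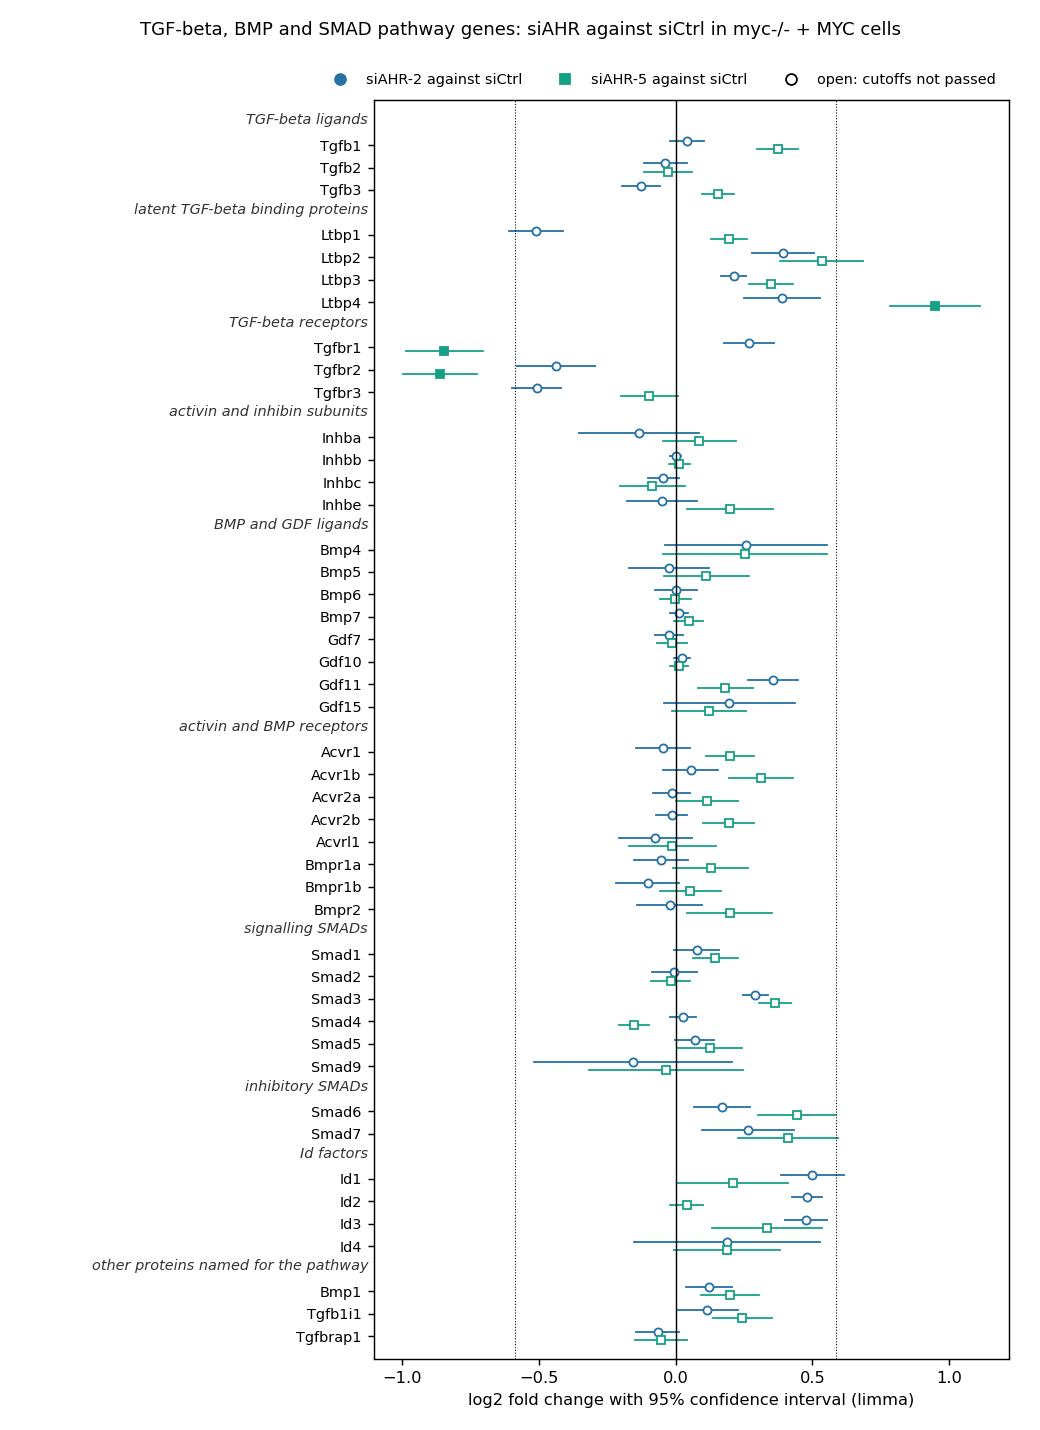
Log2 fold change (x axis) of each of the 45 pathway genes, grouped by role, for siAHR-2 (blue circles) and siAHR-5 (green squares) against the same 3 siCtrl libraries in myc-/- + MYC cells. Lines are 95% confidence intervals, dotted lines mark the fold cutoff and open symbols did not pass both cutoffs; Ltbp4, Tgfbr1 and Tgfbr2 passed with siAHR-5 and none with siAHR-2.

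Ltbp4 read 10.53, 10.58 and 10.70 with siCtrl, 10.96, 10.96 and 11.05 with siAHR-2 and 11.48, 11.65 and 11.52 with siAHR-5. The rise with siAHR-5 passed (log2FC 0.95, SE 0.0657, limma adjusted p = 0.000514), and siAHR-2 gave 0.39 (limma adjusted p = 0.00586). The 3 groups did not overlap, and the siAHR-5 libraries were the highest. Tgfbr2 read 14.29, 14.26 and 14.10 with siCtrl, 13.78, 13.82 and 13.74 with siAHR-2 and 13.35, 13.37 and 13.35 with siAHR-5. The fall with siAHR-5 passed (log2FC -0.86, SE 0.0537, limma adjusted p = 0.000404), siAHR-2 gave -0.44 (limma adjusted p = 0.0043), and all 3 groups were apart.

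Tgfbr1 stood on opposite sides of the control with the 2 siRNAs. It read 13.35, 13.26 and 13.22 with siCtrl, 13.57, 13.52 and 13.56 with siAHR-2 and 12.49, 12.33 and 12.48 with siAHR-5. Its fall with siAHR-5 passed (log2FC -0.84, SE 0.0563, limma adjusted p = 0.000473), and siAHR-2 gave 0.27 (limma adjusted p = 0.00509). The siAHR-5 group lay 1.11 lower than the siAHR-2 group (log2FC -1.11, SE 0.0464, limma adjusted p = 8.61e-05). Ltbp1 was the other member past both cutoffs between the siRNAs. It read 13.07, 13.07 and 13.10 with siCtrl, 12.51, 12.54 and 12.65 with siAHR-2 and 13.24, 13.26 and 13.31 with siAHR-5, and was higher with siAHR-5 than with siAHR-2 (log2FC 0.70, SE 0.0429, limma adjusted p = 0.000251). These were the 2 members called between the siRNAs, 1 higher and 1 lower, against 2.18% of all genes (1.33% higher and 0.849% lower), while Ahr itself differed by -0.11 (95% interval -0.25 to 0.04).

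Other members moved by less than the fold cutoff. With siAHR-2 the log2FCs furthest from 0 after Ltbp1 (-0.51) were those of Tgfbr3 (-0.51), Id1 (0.50), Id2 (0.48) and Id3 (0.48). The same genes had 0.19, -0.10, 0.21, 0.04 and 0.33 with siAHR-5. Id2, for example, read 13.17, 13.14 and 13.10 with siCtrl, 13.62, 13.62 and 13.61 with siAHR-2 and 13.18, 13.18 and 13.17 with siAHR-5. Its siAHR-2 libraries were apart from the other groups, and siAHR-5 and siCtrl overlapped. Ltbp2 had log2FCs of 0.39 and 0.53, Smad3 of 0.29 and 0.36, Smad6 of 0.17 and 0.44, Smad7 of 0.27 and 0.41, and Tgfb1 of 0.04 and 0.37. The 95% interval of Tgfb1 with siAHR-2 was -0.02 to 0.10.

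From the lists, siAHR-2 moved 1 of 122 genes (0.470% of all genes passed), Loxl2 (a lysyl oxidase that crosslinks collagen), which fell by 1.24 (limma adjusted p = 0.000372). With siAHR-5, 7 rose (5.74%) and 0 fell, against 1.47% and 0.849% of all genes. Named by the rule were Cdkn1a (a cell cycle inhibitor) at 1.07, Pmepa1 (an inhibitor of TGF-beta signalling) at 0.95, Itgb8 (an integrin that activates latent TGF-beta) at 0.81, Junb (an AP-1 subunit) at 0.77, Chrd (a BMP antagonist) at 0.73 and Nox4 (an NADPH oxidase) at 0.66, with limma adjusted p of at most 0.00124.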

How the data were processed

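RNA-seq was measured in 18 libraries of myc-/- Rat1 fibroblasts in 6 groups of 3, assigned from the sample labels. Per the study's methods and processing notes, the authors aligned reads to rn6 with HISAT2 2.1.0, removed genes with few reads and normalized with DESeq2. The read counter is not given in the sources used here. The authors deposited log2 values for 13188 genes without pooling replicates. These are called log CPM, but taken off the log scale they sum to far more than CPM would, so the transformation is unknown and may compress changes of low genes. Value columns without a sample numbered 0. Depth and the precision it gives are unknown.

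Each comparison was fitted with limma 3.58.1 in R 4.3.3 (lmFit, eBayes with its trend option), taking only the groups compared, with no filter on low values and Benjamini-Hochberg adjustment over all genes. A gene passed at a fold of at least 1.5 in either direction and an adjusted p of at most 0.01. An exact permutation test of 3 against 3 cannot go below 0.1, so none was used. The fits were tested on simulated data. Members and lists were chosen with earlier results of these data known, and a further symbol pattern of the rule is not reported here. Named with every library were members called in the same direction in both MYC comparisons or with an siRNA, or among the 8 with the largest log2FC in either. From each list up to 4 genes called in both MYC comparisons and up to 4 called with an siRNA were named, by the largest mean log2FC. Columns of the authors' own comparisons were not used. Alternatives were the FDR of 0.05 without a fold cutoff, quantile normalization, median centring, a mean of at least 5, a pseudocount of 1, no trend, one fit of 12 libraries, blocking on the replicate number, and omitting each library singly. Start regions were RefSeq's on GRCr8, and Python 3.11.15 with matplotlib 3.10.9 made the figures.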

Additional observations from a re-analysis of the deposited data

Results flagged for a closer look

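The log2FC with MYC differed between the 2 sets for 19 members by limma's test of the difference, given here as that of the set of 12 less that of the set of 6. The sets differ in scale and in which group was transfected, which cannot be told apart from a different response to MYC.

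In the TGF-beta branch the difference was -1.02 for Tgfb1, -0.88 for Tgfb2 and -1.69 for Tgfb3. For the latent binding proteins it was 0.70 for Ltbp1, -1.98 for Ltbp2 and -1.004 for Ltbp4, so that Ltbp2 fell further and Ltbp4 rose less in the set of 12. Tgfbr1 had 0.81 and Inhba -1.18. The groups of Tgfb3 and Tgfbr1 were apart in opposite directions. Tgfb3 was higher with MYC in the 3 libraries of the set of 6 and lower in the 3 of the set of 12, and Tgfbr1 the reverse, at 0.19 and below the fold cutoff in the set of 12.

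In the BMP and GDF branch the difference was -0.74 for Bmp4, 0.80 for Bmp5, 1.20 for Gdf10 and 2.33 for Gdf15. Gdf15 fell in both sets and Bmp4 rose in both, each by less in the set of 12. The receptors Acvr1 and Acvr1b had -1.17 and 0.79. Smad6 and Smad7, the inhibitory SMADs, had -0.82 and -0.66 (Smad7 -0.57 and -0.50, below the fold cutoff, under centring and quantile normalization), Id2 had 0.88, Bmp1 had -0.97 and Tgfb1i1 had -1.73. The limma adjusted p of these 19 differences was at most 5.83e-05.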

How the results depend on the processing

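Under the 2 scalings, the filter at 5, the pseudocount, the fit without a trend, the fit of all 12 libraries and the left-out libraries, 22 to 24 members passed in the set of 6 and 27 to 32 in the set of 12. The calls of Ltbp4, Tgfbr1 and Tgfbr2 with siAHR-5 held in each of these, and siAHR-2 gave 0. Leaving out 1 library each in turn gave 22 to 24 and 29 to 31. Calls lost were Tgfbr1 and Smad4 in the set of 6 and Ltbp1, Inhbe, Smad4, Id2 and Id3 in the set of 12 under quantile normalization, and Ltbp1 and Id2 under median centring. Fkbp1a lost both calls under quantile normalization. Gained in the set of 6 were Tgfb3 (higher, log2FC 0.62) and Bmp7 under quantile normalization and Bmp7 under centring, so that Tgfb3 was then called in opposite directions in the 2 sets. Between the siRNAs, 6 to 10 list genes passed as libraries were left out, the 6 without siAHR-2 replicate 1, and Ltbp4 was gained as a member without siAHR-2 replicate 3 or siAHR-5 replicate 1.

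At an FDR of 0.05 without a fold cutoff, 10051 genes, 39 members and 98 list genes passed in the set of 6, and 8538 genes and 91 list genes in the set of 12. The same threshold gave 3860 genes, 16 members and 40 list genes with siAHR-2, 5169, 20 and 48 with siAHR-5, 5151, 23 and 55 between the siRNAs, and 7235 genes and 74 list genes for the difference between the MYC effects. Median centring moved the genes called higher and lower from 194 and 112 to 140 and 165 with siAHR-5 (127 and 126 under quantile normalization), from 21 and 41 to 15 and 53 with siAHR-2, and from 896 and 1275 to 1148 and 1036 for the difference. Under quantile normalization all genes called higher and lower with MYC went from 1653 and 1884 to 1799 and 1684 in the set of 6 and from 1425 and 1936 to 1796 and 1660 in the set of 12, so that more were higher than lower, while members were 4 higher and 19 lower, and 6 and 21.

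Log2FCs near 0 changed sign. In the set of 6 Bmp5 was 0.0159 under quantile normalization and -0.0839 to 0.0585 with libraries left out, Acvr1 was -0.0244 under centring, -0.0189 under quantile normalization and -0.0040 to 0.0367 with libraries left out, Acvr2b was -0.0214 under centring and Smad1 0.0217 under quantile normalization. In the set of 12 Bmp7 was 0.0423 under centring and 0.0158 under quantile normalization, and Gdf7 -0.0001 to 0.0348 with libraries left out. With siAHR-2 Cdkn1a was -0.0007 to 0.0688 and Junb -0.0128 to 0.0664 with libraries left out, and Junb -0.0040 under centring. With siAHR-5 Id2 was -0.0193 under centring.

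Replicate numbers did not pair the samples, since no comparison had all 3 correlations of same-numbered libraries over 0.1 (lowest -0.26, highest 0.24). With the replicate number as a block, 0 genes and 0 list genes passed with siAHR-2 in place of 62 and 1 (Loxl2, log2FC -1.24, limma adjusted p = 0.0126), and 23 and 32 members passed with MYC and 3 with siAHR-5. The causes of these changes were not tested.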
